A study of Mus musculus with 12 samples.

Results

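The 10 genes described here encode the Fos proteins (Fos, Fosb, Fosl1 and Fosl2), the Jun proteins (Jun, Junb and Jund), the zinc finger factors Egr1 and Egr2, and the immediate early protein Ier2. They were chosen by symbol, and all 10 were found among the 12081 genes listed. The RNA came from primary stellate cells of Hk2 fl/fl mouse liver, in 4 groups of 3 libraries. Every group carries Hk2 alleles that Cre recombinase can delete. QS cells were freshly isolated by density gradient centrifugation and not treated. ACT cells received an adenovirus for eGFP and were cultured for 6 days. KO cells received an adenovirus for Cre fused to eGFP, which deletes Hk2, and were cultured for the same time. LAC cells were KO cells given 10 mM lactate for 24 h. The labels give no age. They leave unsaid whether libraries of 1 group are separate mice or cultures, so a p-value here reflects library-to-library spread and nothing more, and that spread may be technical. Levels are the authors' values, named as normalized counts relative to library size (CPM). Their library totals run from 959233 to 1047042, so a further scaling may have been applied, which the labels do not state. From the steps between low values, 1 read was worth 0.0707 to 0.240 CPM, the latter in the shallowest library (QS, library 2). Because CPM is relative, fewer cells of a type and less RNA per cell cannot be told apart in these bulk samples.

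Fos and Jun proteins are leucine zipper factors that pair into the dimer called AP-1, which binds short sites in promoters and enhancers. Fos proteins need a Jun partner, whereas Jun proteins can also pair with each other. Many of these genes are immediate early genes: they are switched on within minutes of a growth factor, wound or stress signal through serum response factor (SRF), ternary complex factors and CREB, without new protein synthesis. They are also known to be induced when a tissue is digested into single cells, and in stellate cells AP-1 is known for its part in activation and matrix gene control.

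Promoter sequence is shown for 3 genes that took different courses over the groups: Egr2, which was highest in ACT, and Fosb and Fos, which were highest in QS. RefSeq windows (build GRCm38.p6) of 250 bases before to 50 bases after a transcript start were used for 7 of the 10 genes. These were Fos, Fosb, Fosl2, Jun, Junb, Jund and Egr2. No window of Fosl1, Egr1 or Ier2 was used, so no motif is shown to be present or absent in them. The Jund window, with its bases before the start at 70697489 to 70697738, ends ahead of the annotated gene start at 70698949. That of Fosl2 begins at 32136222, past the gene start at 32135801, and its 250 bases before the start all lie in annotated exons. Neither window covers the stretch just before the annotated gene start. The stretches are written 5′ to 3′ up to the last base before an annotated exon, with the motifs that were found in capitals. The Fosb stretch therefore ends 6 bases before the transcript start from which its positions are counted.
Egr2, chr10:67537619-67537868, plus strand: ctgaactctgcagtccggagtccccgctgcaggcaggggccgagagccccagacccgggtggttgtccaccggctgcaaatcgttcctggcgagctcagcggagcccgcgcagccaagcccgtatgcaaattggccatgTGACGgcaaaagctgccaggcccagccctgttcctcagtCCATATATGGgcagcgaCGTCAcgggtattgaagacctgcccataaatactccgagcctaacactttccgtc
Fosb, chr7:19310052-19310295, minus strand: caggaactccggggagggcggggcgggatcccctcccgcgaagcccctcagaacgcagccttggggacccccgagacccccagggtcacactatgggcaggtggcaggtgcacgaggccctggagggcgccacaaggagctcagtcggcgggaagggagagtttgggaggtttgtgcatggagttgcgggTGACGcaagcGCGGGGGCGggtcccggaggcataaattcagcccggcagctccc
Fos, chr12:85473640-85473889, plus strand: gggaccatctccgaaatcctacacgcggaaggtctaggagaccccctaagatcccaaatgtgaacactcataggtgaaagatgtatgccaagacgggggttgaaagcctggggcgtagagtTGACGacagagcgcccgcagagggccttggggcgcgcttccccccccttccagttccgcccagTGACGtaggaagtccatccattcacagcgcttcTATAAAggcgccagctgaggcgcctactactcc

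The Egr2 stretch holds the CArG box, the core of the site that SRF binds, from position -72 to -63, counted back from -1 as the last base before the transcript start. Of 9634 listed genes with a window, 148 (1.54%) hold a CArG box. Egr2 has 5 windows at different starts, which gives it more chances of a match. Of these, 4 hold a CArG box, but 3 overlap and share the site shown. The short form of the cyclic AMP response element, TGACG on either strand, occurs on both sides of it, and also in the Fos and Fosb stretches and in the Junb window. It is common, in 35.3% of listed genes with a window, and overlaps the full element TGACGTCA, which no window of these 7 genes holds. GCGGGGGCG was searched with GCGTGGGCG as the site of Egr proteins on either strand. It occurs in the Fosb stretch from position -50 to -42 and in the Fosl2 window, there within an annotated exon, against 7.63% of listed genes. TATAAA, the TATA box searched on either strand, stands in the Fos stretch from position -33 to -28. It is also in the Junb window after the start, from position 1 to 6, and occurs in 8.94% of listed genes. The AP-1 site TGAGTCA or TGACTCA is in 4.68% of listed genes and in none of these 7 within the window. Only these exact letters were searched, so near forms of the site would be missed. These are letter matches only, and no binding was measured. Sequence outside the windows was not searched, so a motif not found here, such as a CArG box in Fos, may lie farther out.

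Labels and cell mixture were checked first. Hk2, the targeted gene, was at 181 ± 0.828 CPM (SD, n = 3) in ACT and lower where Cre was given, at 12.1 ± 1.48 CPM in KO and 19.3 ± 0.575 CPM in LAC. In QS it was at 71.2 ± 3.88 CPM. All 15 stellate markers listed were measured, with a summed 6474 to 6627 CPM in QS, 12708 to 12735 CPM in ACT, 3937 to 4249.5 CPM in KO and 6510.4 to 6908 CPM in LAC. Most of the ACT sum was Col1a1 (5341 CPM), Col1a2 (3305 CPM) and Acta2, and from QS to ACT 9 of the 15 fell and 6 rose. Lrat, which esterifies retinol in quiescent stellate cells, averaged 352 CPM in QS and 3.09 CPM in ACT, and Acta2, the smooth muscle actin gene of activated cells, 2.64 and 2656 CPM. Markers of other liver cells were present too. The summed level of 22 macrophage markers was 7514 to 7545 CPM in QS and 19725 to 20104 CPM in ACT, but 219 to 221 CPM in KO, with 5008 to 5095 CPM in LAC. Lyz2 alone averaged 9350 CPM in ACT. From QS to ACT 13 of these markers rose, 6 fell and 3 were not called. Among those that fell were Clec4f, from 360 to 3.72 CPM, and Marco, from 931 to 194 CPM. The summed level of 22 endothelial markers was 20862 to 21452 CPM in QS, fell to 942 to 966 CPM in ACT, and lay at 10795 to 12073 CPM in KO and 5859 to 6099.8 CPM in LAC. That of 25 hepatocyte markers was 3376 to 3438 CPM in QS, and 458 to 475 CPM (ACT), 721 to 764 CPM (KO) and 377 to 394 CPM (LAC) in culture. No macrophage or endothelial marker was at 0 in a whole group, apart from 1 macrophage marker in LAC, while 7 hepatocyte markers were at 0 in LAC and 2 in ACT. Immediate early genes can be induced in all of these cells. The part of the cell mixture in the Hk2 levels and in the results that follow was not tested.

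**Figure D1:**
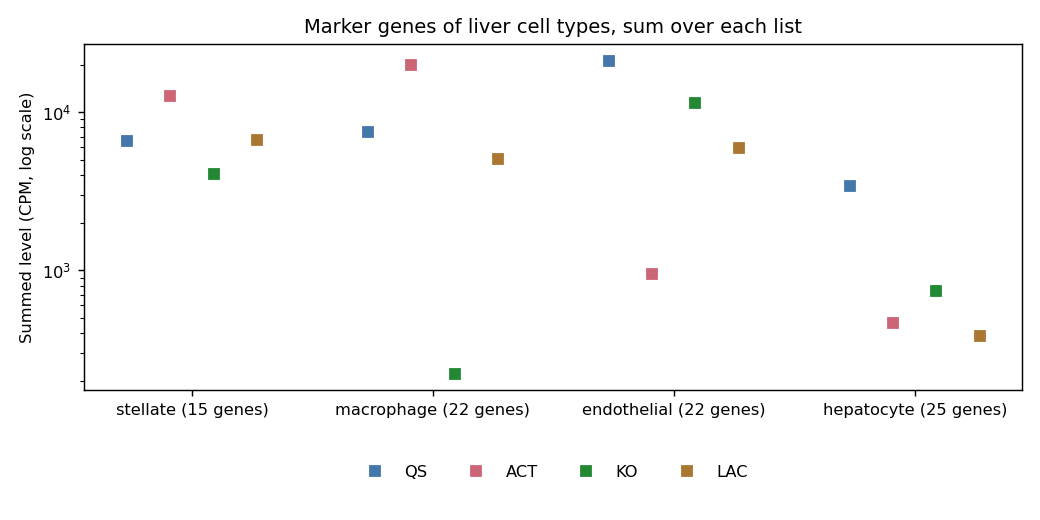
Summed level of the marker genes of 4 liver cell types (CPM, log axis) in each group; squares mark the middle of the range over the 3 libraries, which is narrower than the squares in most cases. Macrophage markers run from 219 CPM in KO to 20104 CPM in ACT, and endothelial markers from 942 CPM in ACT to 21452 CPM in QS.

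Across the study 6 of the 10 genes were highest in QS and 6 were lowest in ACT. Over all listed genes 36.5% were highest in QS and 27.5% lowest in ACT. The range over the group means was widest for Fosb, Egr2 (8.09-fold) and Fos (5.76-fold), and narrowest for Jund (1.59-fold) and Fosl2 (1.45-fold).

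**Figure D2:**
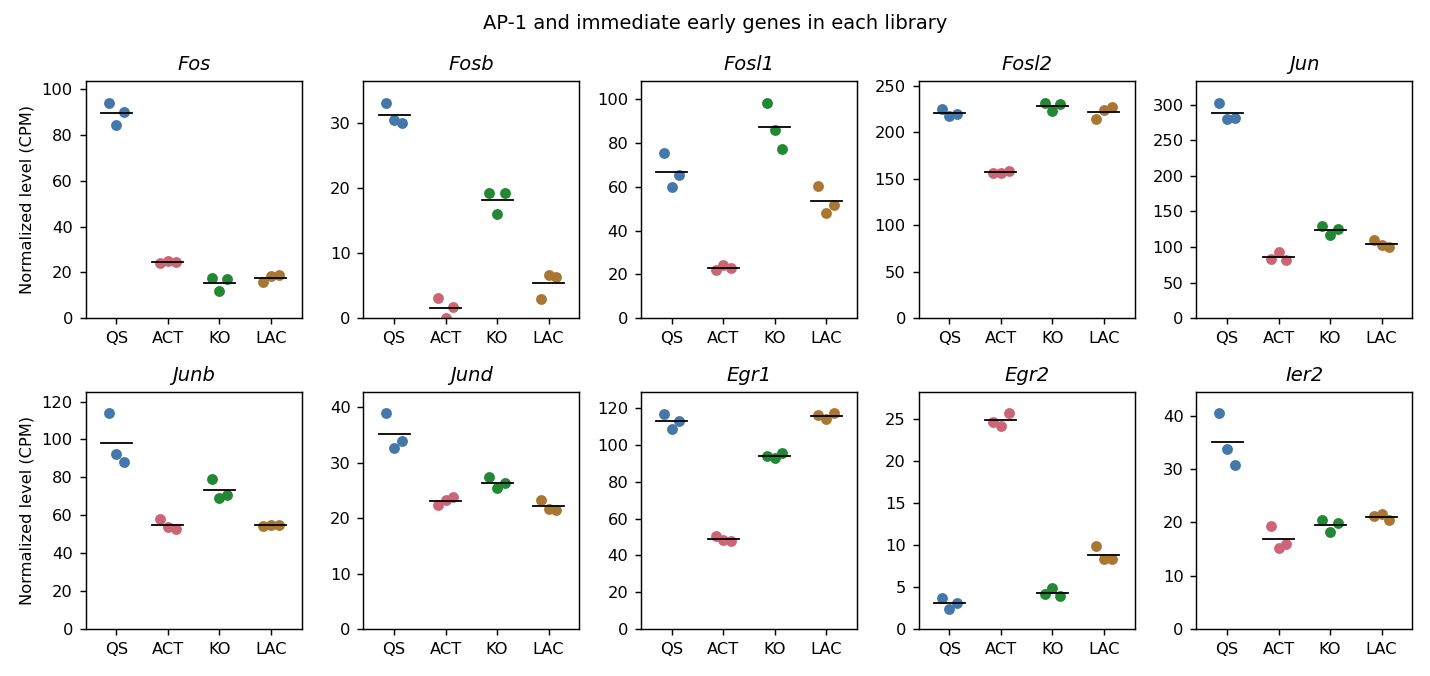
Level of each gene (CPM, linear axis from 0) in every library; points are the 3 libraries of a group and lines are their means. Egr2 is highest in ACT, at 24.2 to 25.7 CPM, while Fos is highest in QS, at 84.4 to 94.1 CPM.

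In ACT vs QS, 9 of the 10 genes were lower in cultured cells with the control virus, and Egr2 was higher. All 10 were called by limma and had no overlap between libraries, where 73.5% of all 12081 genes were called (38% higher and 35.5% lower) and 76.3% did not overlap. The median log2 fold change was -1.10 for the 10 genes and 0.03 over all genes. QS and ACT differ in virus, culture and time at once.

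In KO vs ACT 6 genes rose (Fosb, Fosl1, Fosl2, Jun, Junb and Egr1), Fos and Egr2 fell, and Jund and Ier2 were not called. Of all genes 62.4% were called (36% higher and 26.3% lower). Libraries did not overlap for 9 of the 10 and for 69.2% of all genes, and the medians were 0.46 and 0.07. In LAC vs KO 5 genes fell (Fosb, Fosl1, Jun, Junb and Jund), both Egr genes rose, and Fos, Fosl2 and Ier2 were not called. Of all genes 41% were called (20% higher and 21% lower). Libraries did not overlap for 7 of the 10 and for 52.2% of all genes, and the medians were -0.14 and -0.02. In LAC vs ACT 6 genes were higher (Fosb, Fosl1, Fosl2, Jun, Egr1 and Ier2) and Fos and Egr2 lower. Of all genes 49.5% were called (27.8% higher and 21.7% lower), and 62.8% did not overlap, against 7 of the 10. In all but ACT vs QS, with 10 of 10, the number of the 10 genes called was 7 or 8. ACT vs QS and KO vs ACT share the ACT libraries, and KO vs ACT and LAC vs KO share the KO libraries, so opposite signs in them are not independent.

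**Figure D3:**
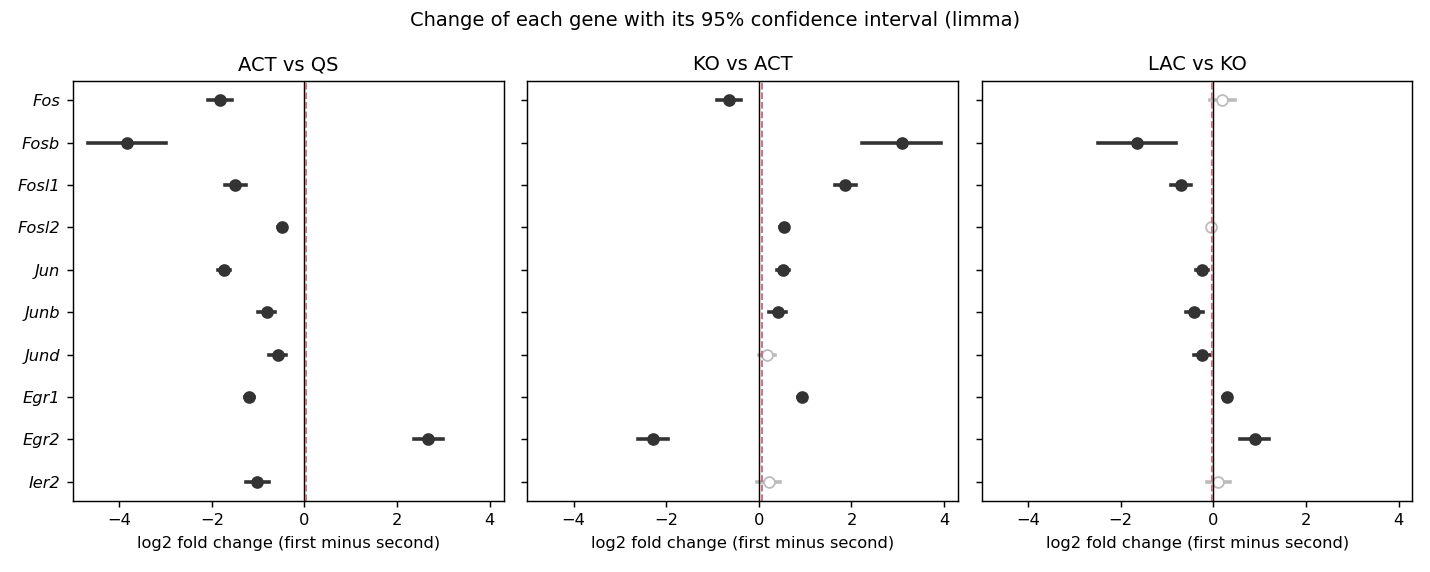
Log2 fold change on the log2(CPM + 1) scale of each gene in 3 comparisons; points are limma estimates, bars their 95% confidence intervals, filled points are called and open grey ones are not. The dashed line is the median over all genes. Fosb moves by -3.83, 3.08 and -1.65 and Egr2 by 2.68, -2.29 and 0.89.

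Against QS the cultured Hk2-deleted cells had Fosl1 and Egr2 higher and Fos, Jun, Junb, Jund, Egr1 and Ier2 lower. In KO vs QS 73% of all genes were called (37.4% higher and 35.7% lower) and 72.5% did not overlap, against 9 of the 10. Fos differed most, at 5.76-fold lower in KO than in QS (log2 fold change -2.47, SE 0.12, adjusted p = 3.02e-10), and Fosl1 was 1.30-fold higher (0.38, adjusted p = 0.00512). For Fosb, KO vs QS was not called (-0.75, adjusted p = 0.101), although the libraries did not overlap, and it was called without the ACT library at 0 (adjusted p = 0.0108), with a pseudocount of 5 (adjusted p = 0.00293) and with only these groups in the fit (adjusted p = 3.02e-04). LAC had 1 gene higher than QS, Egr2 at 2.87-fold, and 7 lower. Of all genes 73.6% were called there (37.4% higher and 36.2% lower) and 74.9% did not overlap, against 7 of the 10.

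Fos, the founding member of the family (mm10, as for all positions here, chromosome 12, 85473890 to 85477273, plus strand), was at 94.1, 84.4 and 89.9 CPM in the QS libraries. In culture it was at 24.1, 24.8 and 24.7 CPM (ACT), 17.5, 11.9 and 17.2 CPM (KO), and 15.7, 18.5 and 18.9 CPM (LAC). Fresh cells lay above all cultured ones, and the 6 libraries with Cre lay below those of ACT. The level was 3.65-fold lower in ACT than in QS (log2 fold change -1.82, SE 0.12, limma adjusted p = 7.49e-09) and a further 1.58-fold lower in KO than in ACT (-0.65, adjusted p = 0.000423). LAC and KO, the lowest neighbours in the order, overlapped and were not called (0.20, 95% confidence interval -0.07 to 0.46, adjusted p = 0.229).

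Fosb, a close relative of Fos (chromosome 7, 19302696 to 19310051, minus strand), was at 33.1, 30.4 and 30.0 CPM in QS and at 3.17, 0 and 1.74 CPM in ACT. It was at 19.2, 16.0 and 19.2 CPM in KO and at 3.004, 6.64 and 6.35 CPM in LAC. About 320, 127 and 144 estimated reads stand behind the QS values, against 44.8 and 23.9 reads in the ACT libraries with a value above 0. The second ACT library lists Fosb at 0, as it does 4 other genes that both other ACT libraries list at 1.5 CPM or more. KO lay above ACT without overlap (log2 fold change 3.08, SE 0.39, adjusted p = 1.06e-05), ACT below QS (-3.83, adjusted p = 7.03e-07), and LAC below KO (-1.65, adjusted p = 0.00424). Without that ACT library the changes were 2.50 for KO vs ACT and -3.25 for ACT vs QS, and with a pseudocount of 5 in place of 1 they were 1.83 and -2.47. With a pseudocount of 0.1, they were 4.43 and -5.21, and LAC vs KO lost its call (adjusted p = 0.141). LAC and ACT overlapped, and their difference of 1.43 (adjusted p = 0.00777) was 0.85 without the ACT library at 0 (adjusted p = 0.0178).

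Fosl1 encodes a Fos-related protein without the strong activation domain of Fos and is itself known as an AP-1 target (chromosome 19, 5447547 to 5455946, plus strand). Its levels were 75.4, 60.0 and 65.6 CPM (QS), 22.2, 24.2 and 23.0 CPM (ACT), 98.5, 86.2 and 77.3 CPM (KO), and 60.4, 48.2 and 51.7 CPM (LAC). KO was the highest group, above all QS libraries, and ACT the lowest. The rise from ACT to KO was 3.78-fold (log2 fold change 1.87, SE 0.10, adjusted p = 1.47e-09), larger in absolute size than the change of all but 8.90% of listed genes. LAC was 1.63-fold below KO (-0.70, adjusted p = 1.12e-04) and 2.31-fold above ACT (1.17, adjusted p = 4.21e-07). QS and LAC overlapped in level. Their difference (-0.32, adjusted p = 0.0132) was not called without the first QS library (adjusted p = 0.0673) or the second LAC library (adjusted p = 0.0641), nor with equal totals (adjusted p = 0.0591) or quantiles (adjusted p = 0.0535).

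Fosl2, the other Fos-related gene (chromosome 5, 32135801 to 32157842, plus strand), differed little between 3 of the groups. QS libraries were at 225, 218 and 220.04 CPM, KO at 232, 223 and 229.8 CPM, and LAC at 214, 224 and 227 CPM. ACT stood apart at 156, 156 and 158 CPM. The level was 1.41-fold lower in ACT than in QS (log2 fold change -0.49, SE 0.03, adjusted p = 1.04e-08) and 1.45-fold higher in KO than in ACT (0.54, adjusted p = 6.40e-09). LAC vs KO was not called (-0.04, 95% confidence interval -0.12 to 0.03, adjusted p = 0.359), nor were KO vs QS (adjusted p = 0.227) and LAC vs QS (adjusted p = 0.889).

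Jun, the main partner of Fos (chromosome 4, 95049034 to 95052222, minus strand, a single exon), had levels of 303, 280.3 and 281 CPM in QS. It was at 82.8, 93.0 and 82.1 CPM in ACT, at 130.1, 117 and 124.8 CPM in KO, and at 109, 102 and 101 CPM in LAC. The 4 groups did not overlap. Jun was 3.35-fold lower in ACT than in QS (log2 fold change -1.73, SE 0.06, adjusted p = 2.79e-12), 1.44-fold higher in KO than in ACT (0.53, adjusted p = 2.57e-06), and 1.19-fold lower in LAC than in KO (-0.25, adjusted p = 0.00358). LAC lay above ACT (0.27, adjusted p = 0.00133).

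Junb, known for opposing Jun at some promoters (chromosome 8, 84974484 to 84978718, minus strand), was at 114, 92.4 and 88.3 CPM (QS), 57.9, 53.9 and 53.0 CPM (ACT), 79.3, 69.0 and 70.9 CPM (KO), and 54.4, 54.7 and 54.8 CPM (LAC). KO lay above ACT (log2 fold change 0.40, SE 0.08, adjusted p = 0.000816) and above LAC (LAC vs KO -0.41, adjusted p = 0.00143), while LAC and ACT overlapped (-0.01, 95% confidence interval -0.19 to 0.17, adjusted p = 0.958). Jund (chromosome 8, 70698949 to 70700616, plus strand), the least inducible Jun gene, was at 38.9, 32.8 and 33.9 CPM (QS), 22.3, 23.4 and 23.9 CPM (ACT), 27.5, 25.4 and 26.3 CPM (KO), and 23.4, 21.6 and 21.6 CPM (LAC). It was 1.52-fold lower in ACT than in QS (-0.58, adjusted p = 1.94e-05). The KO and ACT libraries did not overlap, but KO vs ACT missed the threshold (0.18, adjusted p = 0.0711) and passed it with the 3 other scalings, without the trend in the moderation and without the first QS library. LAC vs KO was called (-0.24, adjusted p = 0.0304), and this call was lost without KO library 1 or 3 or LAC library 2 or 3 (adjusted p = 0.0579 to 0.0946). Junos is annotated antisense to Jun, Gm11175 antisense to Jund, Prdx2 opposite Junb and Ccdc85b opposite Fosl1. The kit keeps strand, but whether it was used in counting is not given in the sources used here, so reads of these pairs may not be fully separated.

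Egr1, a zinc finger factor induced by growth factors and wounding (chromosome 18, 34859823 to 34864984, plus strand), was at 117, 109 and 113 CPM in QS and 50.6, 48.2 and 47.7 CPM in ACT. In KO it was at 94.1, 92.9 and 95.4 CPM, and in LAC at 116, 114 and 117 CPM. Egr1 was lowest in ACT and rose 1.93-fold in KO (log2 fold change 0.93, SE 0.04, adjusted p = 2.09e-10). It then rose by 0.30 in LAC over KO (adjusted p = 1.02e-04), without overlap. LAC and QS overlapped and were not called (0.04, 95% confidence interval -0.06 to 0.13, adjusted p = 0.4404), although LAC was called higher after scaling to equal totals (adjusted p = 0.0131) or quantiles (adjusted p = 0.0153). The order of means LAC, QS, KO, ACT was shared with 0.927% of listed genes. With QS ahead of LAC, which overlapped it, the share is 3.29%.

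Egr2, known in nerve myelination and in macrophages and lymphocytes (chromosome 10, 67535475 to 67542188, plus strand), was the only one of the 10 that was higher in ACT than in QS. It was at 3.72, 2.39 and 3.12 CPM (QS), 24.7, 24.2 and 25.7 CPM (ACT), 4.19, 4.82 and 3.89 CPM (KO), and 9.86, 8.35 and 8.28 CPM (LAC). The 4 groups did not overlap. Egr2 rose 8.09-fold from QS to ACT (log2 fold change 2.68, SE 0.15, adjusted p = 7.29e-10), was 5.78-fold lower in KO than in ACT (-2.29, adjusted p = 7.47e-09), and was 2.05-fold higher in LAC than in KO (0.89, adjusted p = 2.84e-04). KO vs QS, the lowest neighbours (0.39, adjusted p = 0.0294), lost its call without the second QS library or the first or second KO library (adjusted p = 0.05003 to 0.118), with a pseudocount of 5 (adjusted p = 0.0517) and with only these groups in the fit (adjusted p = 0.117). The summed macrophage markers were also highest in ACT (19725 to 20104 CPM), with less in LAC and least in KO, but in QS, where Egr2 was lowest, they stood at 7514 to 7545 CPM. Of 13 mesothelial and cholangiocyte markers 12 were measured, and their sum had the group order of Egr2, with 5206 to 5384 CPM (ACT), 1122 to 1142 CPM (LAC), 195 to 199 CPM (KO) and 166 to 175 CPM (QS). Most of that sum in ACT was Spp1, which macrophages also express, at a mean of 5084 CPM. The part of these cells in the course of Egr2 was not tested.

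Ier2, a small nuclear immediate early protein (chromosome 8, 84661331 to 84662852, minus strand, a single exon), was at 40.5, 33.8 and 30.7 CPM (QS), 19.4, 15.2 and 15.9 CPM (ACT), 20.5, 18.1 and 19.9 CPM (KO), and 21.2, 21.5 and 20.5 CPM (LAC). QS lay above all cultured libraries, which stood close together. Ier2 was 2.08-fold lower in ACT than in QS (log2 fold change -1.01, SE 0.11, adjusted p = 1.80e-06). KO vs ACT (0.21, 95% confidence interval -0.04 to 0.46, adjusted p = 0.126) and LAC vs KO (0.11, adjusted p = 0.486) were not called. KO vs ACT passed without the first ACT library (0.31, adjusted p = 0.0370). LAC lay above ACT without overlap (0.32, adjusted p = 0.0330), a call lost without ACT library 2 or 3 or any 1 of the LAC libraries (adjusted p = 0.0554 to 0.130).

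Levels of different genes were compared per kilobase of exon, since longer transcripts collect more reads. The summed Fos family level was 98.8 ± 6.43 CPM per kb (SD, n = 3) in QS and 38.3 ± 0.408 in ACT, against 76.0 ± 5.97 (KO) and 57.6 ± 1.64 (LAC). That of the Jun family was 154 ± 11.8 (QS), 64.7 ± 1.77 (ACT), 86.5 ± 4.92 (KO) and 69.7 ± 1.98 CPM per kb (LAC). The ratio of Fos to Jun family levels was 0.628 to 0.667 over the QS libraries and 0.580 to 0.608 over those of ACT, with 0.842 to 0.904 (KO) and 0.810 to 0.849 (LAC) after Cre. Both groups with Cre lay above both without, and KO and LAC overlapped. With the longest annotated transcript of each gene as its length, an alternative chosen after seeing the data, the ratio was 0.707 to 0.759 (QS), 0.667 to 0.702 (ACT), 0.955 to 1.01 (KO) and 0.937 to 0.979 (LAC).

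Fos itself made 38.5% ± 0.580 of the family level per kilobase in QS, 27.3% ± 0.143 (ACT), 8.67% ± 1.64 (KO) and 13.1% ± 1.54 (LAC). Fosl1 made 33.3% ± 1.69 (QS), 29.7% ± 0.988 (ACT), 56.4% ± 3.20 (KO) and 45.6% ± 4.18 (LAC). Fosl2 had the largest share in ACT, at 42.4% ± 0.446. In the Jun family Jun had the largest share by exon length, from 41.6% ± 1.91 in ACT to 58.7% ± 1.85 in QS. The leading member depended on the length used. With the longest annotated transcript, Junb led the Jun family in ACT, with 42.7% against 37.8% for Jun, and in KO, with 42.5% against 40.9%. By that length Fosl1 still led the Fos family in KO, at 49.8%, but Fosl2 led in LAC, with 46.9% against 39.5% for Fosl1.

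**Figure D4:**
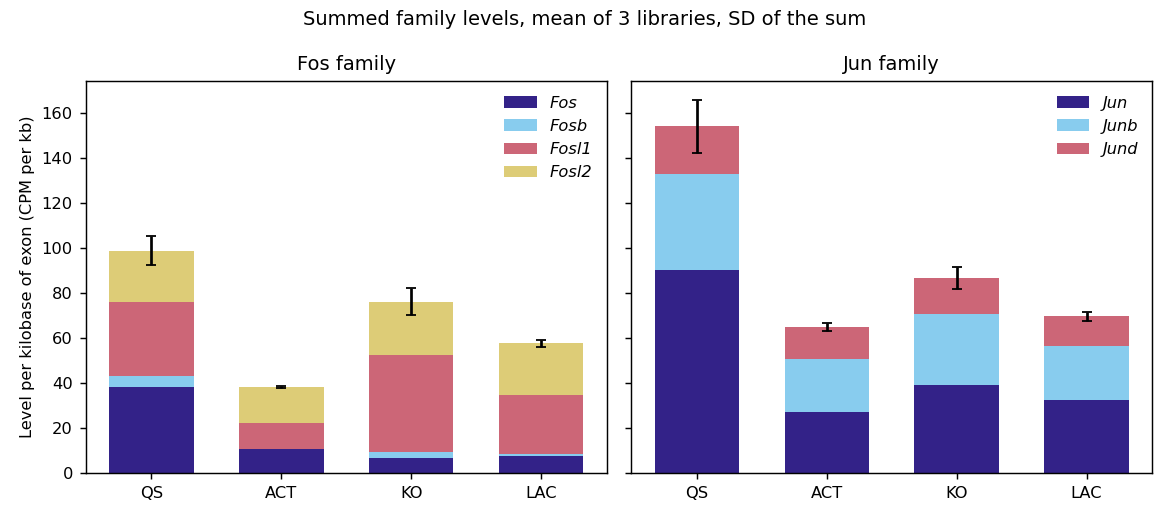
Level per kilobase of exon (CPM per kb, linear axis from 0) stacked over the members of each family; bars are means of 3 libraries and error bars the SD of the summed level. The Fos family falls from 98.8 in QS to 38.3 in ACT and stands at 76.0 in KO, where Fosl1 is the largest block.

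Other immediate early genes were described as a list, chosen with earlier results of these data known. Of 31 listed genes 26 were measured, and in ACT vs QS 20 fell, 3 rose and 3 were not called (median log2 fold change -0.93). For this list and the next ones, the share called over all genes was 73.5% in ACT vs QS, 62.4% in KO vs ACT and 41% in LAC vs KO, and the median over all genes was 0.03, 0.07 and -0.02. Examples are the kruppel-like factor gene Klf2 (118 ± 4.88 CPM in QS and 16.3 ± 2.22 CPM in ACT), Zfp36, whose protein destabilizes AU-rich mRNAs (228 ± 13.6 and 49.8 ± 2.28 CPM), and Nfkbia, the inhibitor of NF-kappaB (226 ± 10.8 and 43.6 ± 0.400 CPM). In KO vs ACT 20 rose and 3 fell (median 0.55). Among those that rose were Ier3 (log2 fold change 1.28), Rhob (1.24) and the nuclear receptor gene Nr4a1 (1.14), while Arc (2.26) rested on 6.01 ± 2.83 CPM in KO. In LAC vs KO 2 rose and 11 fell (median -0.19), among them Klf2 (-1.01) and Nfkbia (-0.89). The summed endothelial markers also fell in ACT (942 to 966 CPM), rose in KO (10795 to 12073 CPM) and fell in LAC (5859 to 6099.8 CPM), and their part was not tested.

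Genes of heat shock and tissue dissociation include targets of heat shock factor that are induced together with Fos and Jun when tissue is digested. Of 14 genes, all measured, 9 fell and 5 rose in ACT vs QS, 13 rose and 1 was not called in KO vs ACT, and 11 fell and 3 were not called in LAC vs KO. The medians were -0.41, 0.47 and -0.24. Hspa1a, an inducible heat shock protein gene, was at 83.5 ± 6.45 CPM (QS), 6.66 ± 1.35 CPM (ACT), 29.97 ± 2.21 CPM (KO) and 7.40 ± 0.872 CPM (LAC). Socs3, a feedback inhibitor of cytokine signalling, was at 56.3 ± 3.06, 7.38 ± 0.142, 36.0 ± 1.11 and 16.9 ± 0.318 CPM in the same groups. Both genes had the group order of Fosb, with QS highest, then KO, LAC and ACT, which is also the commonest order over all genes (13.8%). The summed endothelial markers had this order too, with 20862 to 21452 CPM (QS), 10795 to 12073 CPM (KO), 5859 to 6099.8 CPM (LAC) and 942 to 966 CPM (ACT), and 21 of 22 rose in KO vs ACT. Of 25 hepatocyte markers 24 rose in KO vs ACT, to a summed 721 to 764 CPM. The part of these cells was not tested.

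**Figure D5:**
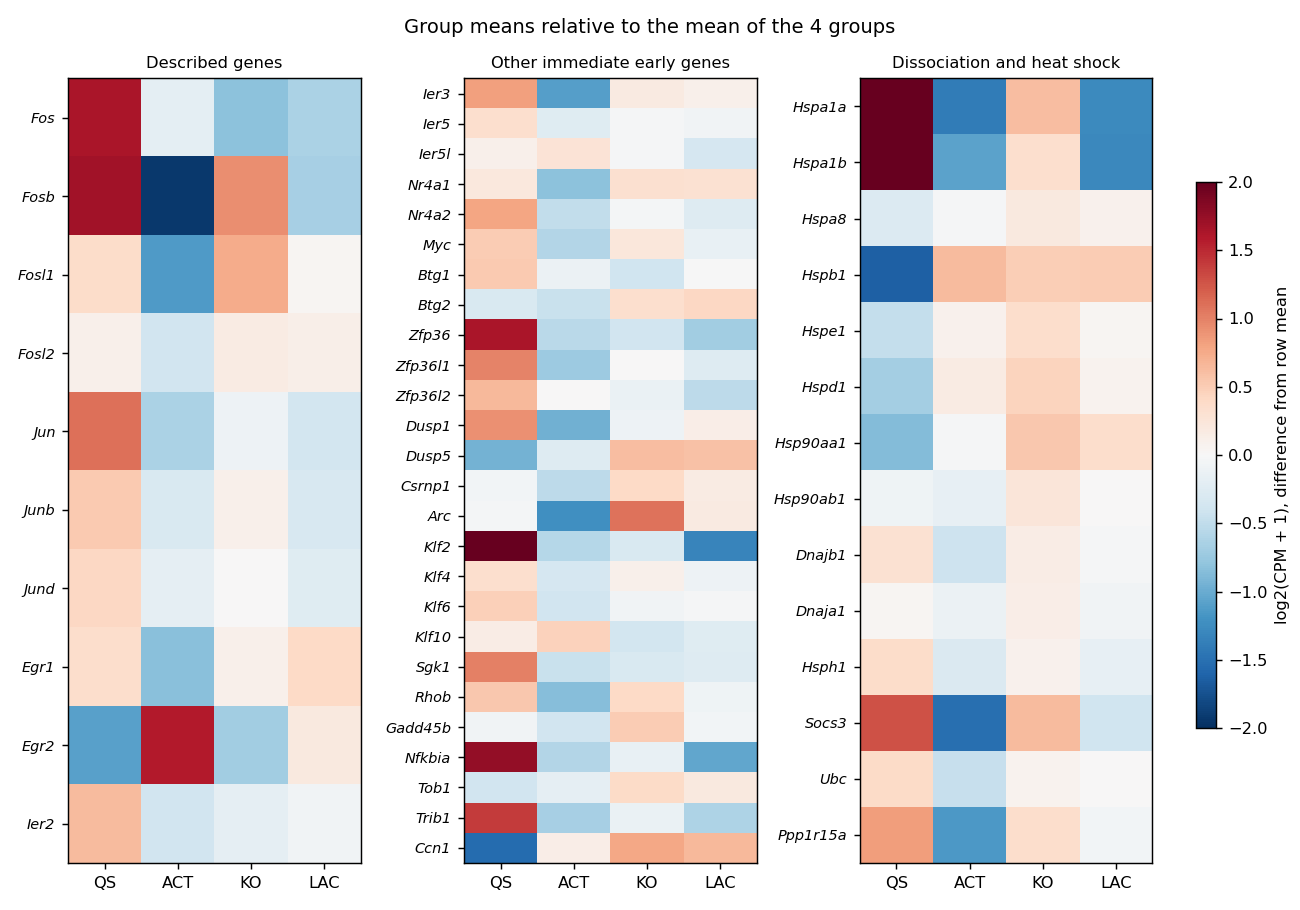
Group means on the log2(CPM + 1) scale relative to the mean of the 4 groups, for the 10 genes (left), 26 other immediate early genes (middle) and 14 dissociation and heat shock genes (right); red is above and blue below the row mean. Fosb, Hspa1a and Socs3 are red in QS and KO and blue in ACT and LAC, and Egr2 is red in ACT.

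Among 15 measured partners and relatives of AP-1 proteins, 10 fell and 3 rose in ACT vs QS, 5 fell and 6 rose in KO vs ACT, and 7 fell and 3 rose in LAC vs KO. That is 13, 11 and 10 of 15 called, where 73.5%, 62.4% and 41% of all genes were. Atf3, which can pair with Jun proteins, was at 77.6 ± 8.42 CPM (QS), 115 ± 3.81 CPM (ACT), 32.0 ± 2.50 CPM (KO) and 52.2 ± 1.32 CPM (LAC). It fell in KO vs ACT (log2 fold change -1.81, adjusted p = 5.96e-11) and rose in LAC vs KO (0.69, adjusted p = 6.40e-06). The small Maf genes Maff (1.22) and Mafk (1.38) rose in KO vs ACT. Of the 2 Egr corepressor genes, Nab1 fell from 153 ± 7.12 CPM in QS to 98.4 ± 4.61 in ACT and 81.3 ± 3.53 CPM in KO. Nab2, itself an Egr target, rose from 13.0 ± 1.99 CPM in QS to 45.0 ± 2.23 in ACT and fell to 25.5 ± 2.71 CPM in KO. In LAC vs KO neither was called.

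Genes with known AP-1 sites mostly rose in ACT. Of 24 listed genes 22 were measured, and 17 rose and 3 fell in ACT vs QS (median log2 fold change 1.16), where 9 of the 10 factor genes fell. Mmp10, a matrix protease gene, rose from 0.229 ± 0.241 to 133 ± 0.929 CPM, and Ptgs2, the inducible cyclooxygenase gene, from 4.94 ± 1.15 to 268 ± 8.49 CPM. In KO vs ACT 8 rose and 11 fell (median -0.13). The members with the largest falls were Mmp12 (-6.49), Spp1 (-5.36) and Mmp9 (-4.48), which macrophages are known to express, and their part in the list was not tested. In LAC vs KO 13 rose and 5 fell (median 0.36), including Il6 (2.42) and Mmp13 (1.44).

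The genes whose course over the 12 libraries was most like that of each gene were found by Pearson's r of log2(CPM + 1), as a description in which the 4 groups set most of the pattern. For Fos they were Ptbp3 (r = 0.994), Mtss1 (0.993) and Acod1 (0.993). For Fosb they were Lrrc47 (0.978), Rapgef3 (0.965) and Spef1 (0.963), for Fosl1 Prrc2b (0.992), Rps6ka2 (0.989) and Unc5a (0.986), and for Fosl2 Mest (0.994), Esm1 (0.994) and Ank3 (0.993). Jun was closest to Pcf11 (0.997), mt-Cytb (0.996) and Sp100 (0.996), Junb to Ubtf (0.980), Gigyf1 (0.978) and Septin11 (0.975), and Jund to Per1 (0.990), Ubtf (0.981) and Zbtb16 (0.981). Egr1 was closest to Ch25h (0.991), Prex2 (0.987) and Prelp (0.986), and Ier2 to Rad21 (0.969), Elf2 (0.961) and Hes1 (0.961). The genes nearest to Egr2 were Runx1 (0.996), the collagen gene Col1a2 (0.993) and Cst3 (0.991).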

How the data were processed

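RNA of 12 libraries, 3 each of QS, ACT, KO and LAC, was made into stranded poly(A) libraries, per the labels' protocols. The deposited values are the authors' signal per gene, named as normalized CPM, and column totals run from 959233 to 1047042. The tools named in the submitters' processing notes are kallisto 0.44.0, edgeR 3.8, cutadapt 1.18 and FastQC 0.11.8, with the build mm10 and no role stated. Groups and replicate numbers came from the titles. The value of 1 read was estimated from shared steps between low values, but at most 25.7% of a library's values above 0 came out whole within 0.01, so no count test was run and reads per gene are approximate. No gene failed the filter, 1 CPM or more in 3 or more libraries.

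Limma 3.58.1 in R 4.3.3 was run on log2(CPM + 1) of all 12081 genes, with 4 group means on 8 residual degrees of freedom and an intensity trend. This scale understates changes of low genes. Benjamini-Hochberg adjustment was done over all genes of each of 6 comparisons, with calls under 0.05. A two-sided exact permutation test of 3 against 3 libraries cannot go below p = 0.10 and was not used. The fit was tested on simulated data. The members and lists were chosen with earlier results of these data known. Named list genes are among the up to 4 called genes of largest change per list and comparison with at least 5 CPM, plus all 10 factor genes and, for likeness, the 3 highest correlations over genes of at least 5 CPM without predicted genes. Gene models came from GENCODE M21 of the same build. Protein sequences were not analysed here. Replicate numbers were not treated as pairs: none of 18 same-number correlations of deviations exceeded 0.1 (highest 0.0858). Correlations between different numbers were not computed, so this cannot show that same-number libraries are unrelated. Alternatives were other pseudocounts, filters, scalings, a replicate block, fewer groups, no trend and leaving out each library. The length per gene was also varied, a choice made after seeing the data.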

Additional observations from a re-analysis of the deposited data

How the results depend on the processing

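The 22 alternatives kept every count of called genes within 1.5 times its value in all 6 comparisons. Of 1320 recomputed values of the 10 genes, 1287 stayed on their side of the threshold, 19 lost a call, 14 gained one and none reversed a call. The number of the 10 genes called stayed at 10 in ACT vs QS, and was 8 to 9 in KO vs ACT, 6 to 7 in LAC vs KO, 7 to 8 in LAC vs ACT, 7 to 9 in KO vs QS and 7 to 9 in LAC vs QS. The changes lie in Fosb, Fosl1, Fosl2, Jund, Egr1, Egr2 and Ier2. Beside the changes given with each gene, Fosl2 was called in KO vs QS (0.16, adjusted p = 9.09e-04) and LAC vs QS (0.10, adjusted p = 0.0168) with equal totals and in KO vs QS with quantiles (0.11, adjusted p = 0.00904). Equal totals moved the median of all genes by 0.10 in KO vs QS. With the replicate block limma called 7542 genes in KO vs ACT and 4935 in LAC vs KO, against 7533 and 4957 without it, and it changed no call of the 10 genes. The fit without a filter equals the reported one, since no gene fails the filter. The causes of these changes were not tested. Precision is limited by 3 libraries a group, for Fosb also by the ACT library at 0, and for Egr2 by low reads.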

Other observations

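The share of all genes called by limma, against which these counts stand, was 73.5% in ACT vs QS, 62.4% in KO vs ACT and 41% in LAC vs KO. Of 12 measured genes of SRF, its cofactors and CREB, 3 rose and 7 fell in ACT vs QS, 5 rose and 5 fell in KO vs ACT, and 3 rose and 3 fell in LAC vs KO. Mrtfa, an SRF cofactor freed by actin assembly, was at 22.0 ± 4.15 CPM (SD, n = 3) in QS, 68.2 ± 2.78 in ACT, 51.8 ± 5.21 in KO and 79.0 ± 6.27 CPM in LAC, and rose in ACT vs QS (log2 fold change 1.61) and LAC vs KO (0.60). Elk3, a ternary complex factor gene also expressed in endothelium, was at 263 ± 11.97, 69.97 ± 0.603, 162 ± 3.96 and 122 ± 2.92 CPM in the same order.

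Among 14 measured MAP kinase phosphatases and feedback inhibitors, 7 rose and 1 fell in KO vs ACT, and 5 rose and 3 fell in LAC vs KO. Dusp1, which inactivates p38 and JNK and is itself an immediate early gene, was at 194 ± 5.57 CPM in QS, 52.5 ± 3.57 in ACT, 96.2 ± 3.86 in KO and 113 ± 1.38 CPM in LAC. Dusp10 rose from 29.6 ± 1.16 CPM in ACT to 64.6 ± 4.51 in KO (adjusted p = 1.92e-09). Of 19 MAP kinases and their kinases, 7 rose and 5 fell in KO vs ACT, a share near that of all genes. Map3k5, a stress-activated kinase gene, fell from 24.0 ± 1.02 to 3.46 ± 1.38 CPM (-2.53), and Map2k3, which activates p38, rose from 76.9 ± 3.79 to 142 ± 4.16 CPM (0.88).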
